A study of Mus musculus with 20 samples.

Results

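25-hydroxycholesterol-3-sulfate (25HC3S), the sulfated form of an oxysterol, was compared with its vehicle in mouse articular chondrocytes. The comparison takes 10 of the 20 samples, 5 given 20 µM 25HC3S and 5 given DMSO, and all 12752 expressed genes of the 54532 listed. The cells came from mice 6 weeks old, and mRNA was sequenced after 48 hours. The other 10 samples, also at 48 hours, had 20 µM 25-hydroxycholesterol (25HC), which lacks the sulfate, or 2 µM GW3965, a synthetic compound that activates liver X receptors (LXR). The labels give neither strain nor sex, and do not say whether replicates came from separate animals or cultures, so the p-values measure only the spread between these samples, which may be technical.

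25HC is made from cholesterol by cholesterol 25-hydroxylase (Ch25h), and sulfotransferases can add a sulfate at its carbon 3. Cells sense sterols through SCAP and the INSIG proteins, which hold the transcription factor SREBP-2 in the endoplasmic reticulum while sterol is plentiful; when sterol is scarce, SREBP-2 reaches the nucleus and raises genes of cholesterol synthesis and uptake. Free oxysterols are also ligands of LXR, which raises genes of cholesterol efflux. Articular chondrocytes are the cells of joint cartilage and secrete its type II collagen and aggrecan.

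Vehicle libraries 2, 3 and 4 and 25HC3S library 1 stood apart from the rest in complexity. They had 915, 237, 316 and 1171 genes with exactly 1 recovered fragment, against 1808 to 2057 in the other 16, although total fragments ran only from 14653777 to 19365220. Mitochondrially encoded genes took 0.369%, 4.07%, 3.60% and 3.14% of their fragments, against 0.889% to 1.41% in the others. Comparisons were made over all 20 libraries and over the 16 left without these 4, which hold 2 vehicle and 4 25HC3S libraries; where 2 values are given for a gene or list, the first is from 20 and the second from 16, and a value with neither named is from 20. Differences are 25HC3S minus vehicle on the log2(FPKM + 1) scale ± SE, which understates changes of low genes, and values per library are in the order of libraries 1 to 5. A gene is said to rise or fall where limma's adjusted p over the 12752 genes was under 0.05 with 20 libraries, and to be higher or lower with 16 where that fit called it.

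**Figure D1:**
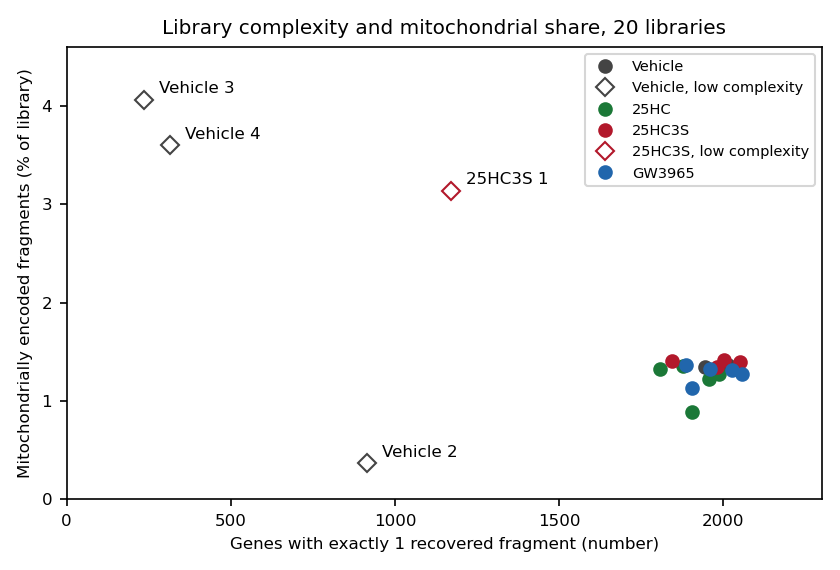
Genes with exactly 1 recovered fragment and the share of mitochondrially encoded fragments in each of the 20 libraries; open diamonds mark the 4 of low complexity. These hold 237 to 1171 genes with 1 fragment and the other 16 hold 1808 to 2057.

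Chondrocyte markers were high: Col2a1, type II collagen, averaged 1958 ± 996 FPKM in vehicle (SD, n = 5) and Acan, aggrecan, 72.7 ± 8.20 FPKM. Macrophage markers were present too, with Csf1r, the receptor for colony-stimulating factor 1, at 57.2 ± 4.20 FPKM. The T-cell marker Cd3e, the B-cell marker Ms4a1 and the hemoglobin gene Hba-a1 were listed at 0 in every library, and no lymphocyte, neutrophil or erythroid marker reached the minimum for testing. Of 9 mast cell markers, Gata2, a transcription factor that other cells also express, alone reached it, and the mast cell list summed to 1.29 to 2.17 FPKM in vehicle and 1.14 to 2.34 FPKM with 25HC3S, with the mast cell proteases Mcpt4, Cma1 and Tpsb2 at 0 in every library. In such bulk samples, fewer cells of a type and less RNA per cell cannot be told apart.

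With 20 libraries, 59 genes rose (0.463% of those tested) and 146 fell (1.14%), and 7 of the rises and 8 of the falls were at least 2-fold. With 16 libraries, 169 were higher (1.33%) and 335 lower (2.63%). These shares over all genes are the background for the list counts against vehicle that follow. Both fits called 146 genes, all in the same direction, 29 higher and 117 lower, which is 71.2% of the calls with 20 libraries and 29.0% of those with 16. The median over all tested genes was 0.02 and 0.01. Both fits took the spread of each gene from all 4 groups, so 25HC and GW3965 libraries also enter the SE and adjusted p. Fitting the 2 groups without the others called 6 rises and 17 falls. There, 40 of the 55 named genes called with 20 libraries lost the call. Srebf2, Scd1, Aspn and Porcn were among them, with adjusted p from limma of 0.32, 0.28, 0.44 and 0.62. In the 16-library fit, 23 higher and 85 lower calls were left without vehicle 5, and 66 and 189 without vehicle 1; each leaves 1 vehicle library, assumed to vary like the other groups. Of the 63 genes named here that were called with 16 libraries, 36 lost the call without vehicle 5, and 21 without vehicle 1. Those lost without vehicle 5 included Abcg1, Acly, Acsl3, Adamts1, Avpr1a, Ccnd1, Cd68, Ch25h, Clec4e, Csf1, Fads2, Fcgr1, Fdft1, Gpnmb, Gpr183, Idi1, Ifit1, Isg15, Kcnk1, Mir1932, Mir301, Mpeg1, Msmo1, Plau, Porcn, Pstpip2, Ptgs2, Sesn1, Srebf2, Stard4, Tnfrsf11a and Trem1. With 20 libraries, the 59 higher calls became 339, 89, 32, 37 and 207 without vehicle 1, 2, 3, 4 and 5 in turn. They became 181, 24, 23, 25 and 29 without 25HC3S 1, 2, 3, 4 and 5 in turn. The 146 lower calls became 283, 203, 113, 111 and 219 without vehicle 1, 2, 3, 4 and 5 in turn. Without 25HC3S 1, 2, 3, 4 and 5 in turn, the lower calls were 252, 74, 84, 89 and 84.

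Many genes of cholesterol synthesis fell. Of its 22 tested enzymes, 11 fell and none rose with 20 libraries, and 15 were lower and none higher with 16. Over all genes, 1.14% fell and 2.63% were lower. In 11 of the 22, every 25HC3S library lay below every vehicle library. The same held for 75 of the 117 genes called lower in both fits, which were selected as lower. It was not counted over all tested genes, so neither count has a background share. Promoters of 4 sterol genes are shown because these genes fell together. Each window spans the motif matches within 250 bases before the RefSeq start (GRCm38.p6) with 5 bases on either side, written along the gene. Capitals mark CCAAT, the box bound by NF-Y (ATTGG when on the opposite strand), and TCACNCCAC, a form of the sterol regulatory element bound by SREBP.
Hmgcs1, chr13:119690109-119690315, plus strand: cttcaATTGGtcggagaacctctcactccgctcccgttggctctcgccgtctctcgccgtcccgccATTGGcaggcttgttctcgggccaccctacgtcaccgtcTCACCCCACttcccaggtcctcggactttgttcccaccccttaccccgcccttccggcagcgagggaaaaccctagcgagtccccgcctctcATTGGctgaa
Msmo1, chr8:64733624-64733743, minus strand: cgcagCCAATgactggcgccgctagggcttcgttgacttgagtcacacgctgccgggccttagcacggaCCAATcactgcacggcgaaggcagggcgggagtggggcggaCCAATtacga
Idi1, chr13:8885556-8885601, plus strand: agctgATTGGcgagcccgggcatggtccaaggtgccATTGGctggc
Insig1, chr5:28071191-28071205, plus strand: ctcccATTGGctccg
Among these 4 windows, TCACNCCAC was found in that of Hmgcs1; other forms of the sterol element were not searched. Both strands were searched, and matches to the 2 motifs may overlap. Of 27025 symbols with a promoter, 1.22% held TCACNCCAC and 37.5% held CCAAT, and of the 9140 tested genes with an entry, 1.27% and 40.6%. Of the 18 synthesis enzymes with a promoter entry, 1 held TCACNCCAC and 16 (88.9%) CCAAT, and of the 98 with an entry among the 146 genes that fell, 6 and 35 (35.7%). Over the lists of cholesterol synthesis, SREBP control and sterol uptake, CCAAT was also common in genes that did not fall. With an entry, 9 of 9 that fell and 21 of 30 (70%) that did not held it. These matches describe letters in the window only.

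Of 8 tested genes of the mevalonate arm, 3 fell, among them Hmgcs1 and Idi1. Hmgcs1, which makes HMG-CoA (chr13:119690379-119708260), stood at 13.6, 20.4, 17.1, 12.4 and 14.4 FPKM in vehicle and 8.01, 7.28, 7.74, 8.13 and 8.18 FPKM with 25HC3S. The groups did not overlap, and the difference was -0.88 ± 0.10 (adjusted p = 5.4e-05) with 20 libraries and -0.76 ± 0.08 (adjusted p = 9.7e-05) with 16. Idi1, which isomerizes isopentenyl diphosphate, stood at 4.23, 5.96, 8.19, 6.12 and 4.80 FPKM in vehicle and 2.51, 1.62, 2.06, 2.25 and 2.89 FPKM with 25HC3S. Vehicle 3 was its highest library, and the difference was -1.05 ± 0.14 (adjusted p = 0.00022) with 20 libraries and -0.79 ± 0.15 (adjusted p = 0.0057) with 16. With 16 libraries Idi1 was not called without vehicle 5 (adjusted p = 0.11). Mvk and Mvd, the mevalonate kinase and the diphosphomevalonate decarboxylase, were lower only with 16 libraries, at -0.30 and -0.66 against -0.14 and -0.09 with 20. Acat2, Pmvk and Ggps1 were called in neither fit, at -0.20, 0.34 and -0.05 with 20 libraries, and Fdps, with at most 1.11 FPKM, was not tested.

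From squalene onward, 8 of 14 genes fell, among them Msmo1, Cyp51, Fdft1, Sqle, Hsd17b7, Lss and Tm7sf2. Msmo1, the sterol C4-methyl oxidase (chr8:64718139-64733792), stood at 6.97, 11.3, 12.1, 12.2 and 8.76 FPKM in vehicle and 4.13, 3.11, 4.94, 4.11 and 4.63 FPKM with 25HC3S. Its 3 highest libraries were the vehicle libraries of low complexity, and the difference was -1.10 ± 0.13 (adjusted p = 5.4e-05) with 20 libraries and -0.78 ± 0.13 (adjusted p = 0.0028) with 16. Cyp51, lanosterol demethylase (chr5:4081145-4104746), stood at 15.9, 18.4, 18.4, 20.1 and 15.2 FPKM in vehicle and 8.48, 8.02, 9.50, 9.74 and 9.18 FPKM with 25HC3S, a difference of -0.89 ± 0.08 (adjusted p = 9.9e-07) with 20 libraries and -0.71 ± 0.07 (adjusted p = 6.6e-05) with 16. Sqle, squalene epoxidase, was even within each group, at 11.1, 11.4, 10.2, 12.3 and 12.9 FPKM in vehicle and 6.02, 6.27, 7.24, 6.98 and 6.92 FPKM with 25HC3S. That difference was -0.71 ± 0.07 (adjusted p = 4.2e-06) with 20 libraries and -0.73 ± 0.07 (adjusted p = 2.5e-05) with 16. Fdft1, squalene synthase, fell from 8.22 ± 1.21 to 4.42 ± 0.883 FPKM (SD, n = 5), a difference of -0.77 ± 0.11 (adjusted p = 0.00044) with 20 libraries and -0.83 ± 0.13 (adjusted p = 0.0019) with 16. Without vehicle 5, the 16-library fit no longer called Msmo1 or Fdft1. Nsdhl and Sc5d were lower only with 16 libraries, at -0.60 and -0.40, and Lbr, Ebp, Dhcr7 and Erg28 were called in neither fit. Medians were -0.17 and -0.34 for the mevalonate arm and -0.47 and -0.56 from squalene onward, beside 0.02 and 0.01 over all genes.

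Of 14 genes of SREBP control, Insig1 and Srebf2 fell and Rnf145 rose, in both fits. Insig1, the retention protein that is itself an SREBP target (chr5:28071363-28078662), stood at 14.3, 15.1, 20.5, 15.6 and 14.9 FPKM in vehicle and 6.02, 7.18, 8.73, 9.52 and 9.16 FPKM with 25HC3S. Vehicle 3 was the highest library and all 25HC3S libraries lay below vehicle, with a difference of -0.91 ± 0.11 (adjusted p = 0.0001) with 20 libraries and -0.70 ± 0.10 (adjusted p = 0.00095) with 16. Srebf2, which encodes SREBP-2, fell from 21.3 ± 1.17 to 16.8 ± 1.12 FPKM, a difference of -0.33 ± 0.06 (adjusted p = 0.0036) with 20 libraries and -0.35 ± 0.06 (adjusted p = 0.0023) with 16. Rnf145, a ubiquitin ligase of the endoplasmic reticulum known as an LXR target (chr11:44518964-44565520), stood at 8.48, 8.90, 8.36, 8.26 and 9.49 FPKM in vehicle and 13.2, 14.0, 14.3, 14.8 and 14.3 FPKM with 25HC3S. Its groups were far apart and its libraries close together, with a rise of 0.64 ± 0.05 (adjusted p = 8e-07) with 20 libraries and 0.62 ± 0.05 (adjusted p = 1.3e-05) with 16. Srebf1, Scap, Insig2, Mbtps1 and Mbtps2 were called in neither fit, with Srebf1 at 0.04 and -0.17.

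**Figure D2:**
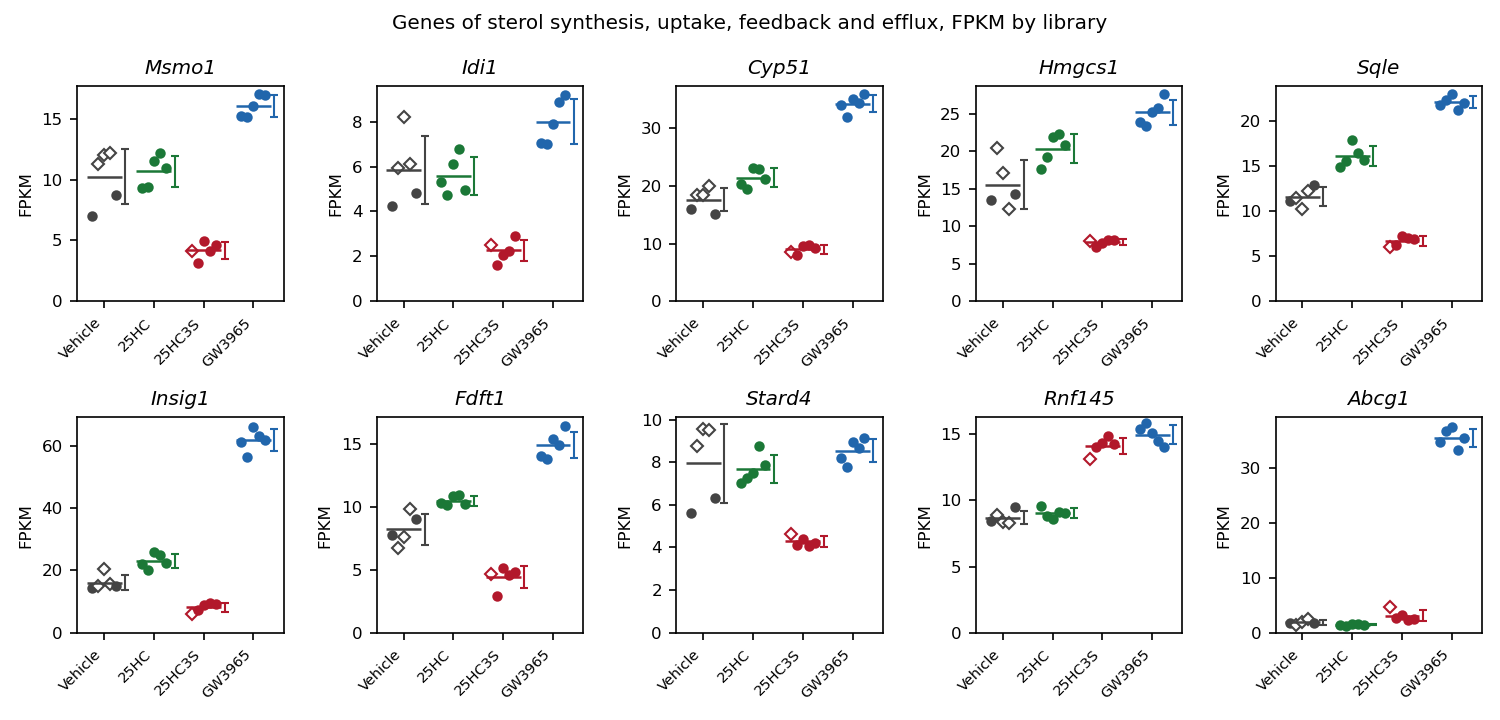
FPKM (y axis, linear) of sterol genes in each library by group (x axis), with the mean (bar) and SD (error bar, n = 5); open diamonds are the low-complexity libraries, and GW3965 was given at 2 µM against 20 µM for the oxysterols. Insig1 with 25HC3S lies at 6.02 to 9.52 FPKM, under every vehicle library.

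Sterol uptake and transport held 2 falls and no rise among 18 tested genes, beside 1.14% falls and 0.463% rises over all genes. Stard4, a soluble sterol carrier, stood at 5.64, 8.76, 9.56, 9.53 and 6.32 FPKM in vehicle and 4.64, 4.11, 4.39, 4.07 and 4.19 FPKM with 25HC3S. The groups did not overlap, and the difference was -0.74 ± 0.11 (adjusted p = 0.00085) with 20 libraries and -0.43 ± 0.07 (adjusted p = 0.0032) with 16. Npc2, a lysosomal sterol carrier, was lower only with 16 libraries, at -0.23 against 0.09 with 20.

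Of 14 tested genes on the LXR target list, Scd1 fell and none rose with 20 libraries, and Scd1 was lower and Abcg1 higher with 16, with medians of -0.04 and -0.15. Rnf145, also known as an LXR target, was held with SREBP control and is not in these counts; it rose in both fits, as given above. Abca1, the main cholesterol exporter, stood at 8.53, 11.3, 13.8, 14.0 and 8.60 FPKM in vehicle and 13.1, 9.42, 8.81, 7.92 and 8.55 FPKM with 25HC3S. Its high values were in vehicle 2 to 4 and 25HC3S 1, the low-complexity libraries, and the difference was -0.21 ± 0.13 (adjusted p = 0.4) with 20 libraries and 0.01 ± 0.06 (adjusted p = 0.94) with 16. Abcg1, a second exporter, stood at 1.83, 1.36, 1.94, 2.48 and 1.79 FPKM in vehicle and 4.75, 2.60, 3.26, 2.31 and 2.42 FPKM with 25HC3S, which gave 0.48 ± 0.12 (adjusted p = 0.055) with 20 libraries and 0.37 ± 0.08 (adjusted p = 0.019) with 16. The 16-library call of Abcg1 was lost without vehicle 1 or 5 (adjusted p = 0.1 to 0.17). With 2 µM GW3965, another agent at another dose, Abca1 averaged 111 ± 2.10 FPKM, Abcg1 35.4 ± 1.61 FPKM and Rnf145 15.0 ± 0.744 FPKM (SD, n = 5).

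In fatty acid synthesis, 4 of 17 tested genes fell and none rose: Scd1, Fads2, Acsl3 and Acly. The share of falls over all genes was 1.14%. Scd1, the delta-9 desaturase, stood at 57.1, 55.3, 99.1, 106 and 60.9 FPKM in vehicle and 55.2, 33.7, 36.9, 31.6 and 36.4 FPKM with 25HC3S. Library 1 of 25HC3S was level with the lower vehicle libraries, and the difference was -0.92 ± 0.17 (adjusted p = 0.0062) with 20 libraries and -0.75 ± 0.07 (adjusted p = 1.4e-05) with 16. Fads2, the delta-6 desaturase, was at -0.54 and -0.51 and Acly, ATP citrate lyase, at -0.25 and -0.27. Acly lost its call with 20 libraries without vehicle 3, 4 or 5 or 25HC3S 2, 3, 4 or 5 (adjusted p = 0.052 to 0.13), and Fads2 without vehicle 4 or 25HC3S 2 (adjusted p = 0.05 to 0.072). Fasn and Acaca were called in neither fit. Among 19 PPAR targets and lipid droplet genes none passed with 20 libraries, and Plin2, Cpt1a, Fabp4 and Fabp5 were lower with 16.

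Genes that make, modify or sense oxysterols held 1 fall among 14 tested. Gpr183, the immune-cell receptor for dihydroxycholesterols, stood at 1.90, 1.71, 3.64, 2.41 and 2.56 FPKM in vehicle and 0.911, 1.02, 1.45, 1.53 and 0.903 FPKM with 25HC3S, a difference of -0.66 ± 0.13 (adjusted p = 0.014) with 20 libraries and -0.54 ± 0.14 (adjusted p = 0.045) with 16. Ch25h stood at 11.4, 4.68, 4.36, 3.12 and 9.23 FPKM in vehicle and 3.42, 5.73, 5.89, 8.23 and 6.01 FPKM with 25HC3S. Vehicle 1 and 5 were its highest libraries, and the difference was -0.05 ± 0.24 (adjusted p = 0.92) with 20 libraries and -0.60 ± 0.13 (adjusted p = 0.018) with 16. The 16-library call of Gpr183 was lost without vehicle 1 or 5 or 25HC3S 2 or 5 (adjusted p = 0.067 to 0.41), and that of Ch25h without vehicle 1 or 5 (adjusted p = 0.057 to 0.21). Cyp7b1, the oxysterol 7-hydroxylase, was called in neither fit, at -0.32 and -0.01. The sulfotransferases Sult2b1 and Sult1e1 had at most 0.186 and 0 FPKM and were not tested.

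Among named genes, the largest falls with 20 libraries were those of Mrc1 and Fcrls, receptors of resident-type macrophages. Of 18 tested receptors and markers of such cells, 8 fell with 20 libraries and 11 were lower with 16, none higher in either fit, with medians of -0.43 and -0.53. Over all genes, these shares were 1.14% and 2.63%. Mrc1, the mannose receptor CD206 (chr2:14229392-14332057), stood at 19.2, 21.1, 29.0, 32.1 and 24.7 FPKM in vehicle and 6.94, 5.56, 6.399, 6.71 and 6.39 FPKM with 25HC3S. The difference was -1.80 ± 0.13 (adjusted p = 9.8e-08) with 20 libraries and -1.65 ± 0.14 (adjusted p = 1.3e-05) with 16. Fcrls, an Fc receptor-like molecule (chr3:87250758-87263738), stood at 39.7, 35.8, 29.6, 32.2 and 47.3 FPKM in vehicle and 10.5, 9.11, 12.9, 9.92 and 9.55 FPKM with 25HC3S, a difference of -1.72 ± 0.13 (adjusted p = 9.8e-08) with 20 libraries and -1.98 ± 0.15 (adjusted p = 1e-05) with 16. For both genes every 25HC3S library, low-complexity library 1 included, lay below every vehicle library. Stab1, the scavenger receptor stabilin-1 (chr14:31139013-31168641), fell from 18.4 ± 2.41 to 7.24 ± 0.33 FPKM, a difference of -1.22 ± 0.08 (adjusted p = 9.8e-08) with 20 libraries and -1.28 ± 0.11 (adjusted p = 1.3e-05) with 16. Siglec1, the sialic acid receptor CD169, fell from 2.30 ± 0.429 to 0.609 ± 0.121 FPKM, a difference of -1.03 ± 0.12 (adjusted p = 4.1e-05) with 20 libraries and -1.09 ± 0.14 (adjusted p = 0.0005) with 16. Selenop, Msr1, F13a1 and Maf also fell, at -0.87, -0.81, -0.58 and -0.35 with 20 libraries, and stood at -0.85, -0.60, -0.33 and -0.21 with 16. The summed level of the whole list ran from 586 to 702 FPKM in vehicle and from 542 to 590.1 FPKM with 25HC3S.

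Of 20 tested general macrophage markers, Adgre1, Mpeg1 and Fcgr1 fell with 20 libraries and 9 were lower with 16, none higher in either fit. Among all genes, 1.14% fell and 2.63% were lower. The medians were -0.28 and -0.42, and 16 of the 20 lay below 0 with 20 libraries and all 20 with 16, against 17 and 17 of the 18 receptors; the lists were not tested against each other. Adgre1 (F4/80) stood at 35.1, 34.5, 38.7, 40.8 and 42.4 FPKM in vehicle and 21.8, 19.9, 22.4, 22.1 and 19.5 FPKM with 25HC3S. Its groups did not overlap, with a difference of -0.83 ± 0.09 (adjusted p = 1.8e-05) with 20 libraries and -0.85 ± 0.11 (adjusted p = 0.0005) with 16. Csf1r stood at 54.5, 53.2, 56.4, 58.0 and 64.0 FPKM in vehicle and 48.9, 44.9, 49.7, 50.7 and 42.04 FPKM with 25HC3S. The groups did not overlap here either, but -0.27 ± 0.08 (adjusted p = 0.13) with 20 libraries and -0.33 ± 0.11 (adjusted p = 0.12) with 16 missed the threshold in both fits. Ptprc (CD45), carried by all leukocytes, was at -0.08 and -0.03. The complement chains C1qa, C1qb and C1qc were at 0.04, -0.23 and -0.33 with 20 libraries and were lower with 16, at -0.83, -0.71 and -0.88. Cd68, a lysosomal macrophage protein, had 16.2 FPKM in vehicle 2, 69.4 to 81.4 FPKM in the other vehicle libraries and 41.5 to 50.2 FPKM with 25HC3S, a difference of -0.30 ± 0.30 (adjusted p = 0.58) with 20 libraries and -0.67 ± 0.13 (adjusted p = 0.0073) with 16. The summed level of the 20 markers ran from 577 to 1267 FPKM in vehicle and from 496 to 884 FPKM with 25HC3S, and its part in the falls of the receptors was not tested. None of 13 antigen presentation genes was called in either fit.

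Some genes of activated myeloid cells rose. Of 16 tested, Mmp12, Trem1, Cd14, Spn, Clec4e and Clec5a rose. Spn and Clec5a were not called with 16 libraries. The list medians were 0.31 and 0.10. Over all genes, 0.463% rose with 20 libraries and 1.33% were higher with 16. Mmp12, macrophage elastase (chr9:7344381-7369499), stood at 1.87, 1.34, 1.78, 1.46 and 1.65 FPKM in vehicle and 4.77, 4.09, 4.85, 4.33 and 3.89 FPKM with 25HC3S. Every 25HC3S library held more than 2 times the highest vehicle level, and the difference was 1.04 ± 0.08 (adjusted p = 9.8e-08) with 20 libraries and 0.93 ± 0.08 (adjusted p = 1.6e-05) with 16. Cd14, the lipopolysaccharide co-receptor, stood at 25.5, 28.4, 22.0, 23.8 and 28.7 FPKM in vehicle and 35.2, 42.1, 50.7, 48.5 and 43.1 FPKM with 25HC3S, also without overlap, a difference of 0.75 ± 0.11 (adjusted p = 0.00061) with 20 libraries and 0.74 ± 0.12 (adjusted p = 0.0019) with 16. Trem1, an amplifier of myeloid activation, was low, at 0.278 to 0.757 FPKM in vehicle and 1.01 to 2.25 FPKM with 25HC3S, and Clec4e (Mincle) at 0.527 to 0.741 and 1.16 to 1.40 FPKM. Their differences were 0.75 and 0.54 for Trem1 and 0.49 and 0.47 for Clec4e. The 16-library calls of Trem1 and Clec4e were lost without vehicle 1 or 5 or 25HC3S 2, 4 or 5 (adjusted p = 0.062 to 0.37) and vehicle 1 or 5 (adjusted p = 0.081 to 0.15). Of 18 inflammatory mediators, Ptgs2 (cyclooxygenase-2) and Csf1 rose, from 3.26 ± 0.34 to 4.95 ± 0.816 FPKM and from 186 ± 42.5 to 263 ± 34.0 FPKM, at differences of 0.48 and 0.39 for Ptgs2 and 0.52 and 0.30 for Csf1. Csf1 lost its 20-library call without vehicle 3 or 4 or 25HC3S 2, 3, 4 or 5 (adjusted p = 0.077 to 0.12). Tnf, Ccl2 and Cxcl1 stood at 0.58, 0.66 and 0.57 with 20 libraries and were called in neither fit. Il1b and Il6 had at most 0.535 and 0.527 FPKM in any library. The median of the inflammatory mediators was 0.35 with 20 libraries and 0.09 with 16. None of 11 complement genes outside C1q was called in either fit.

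**Figure D3:**
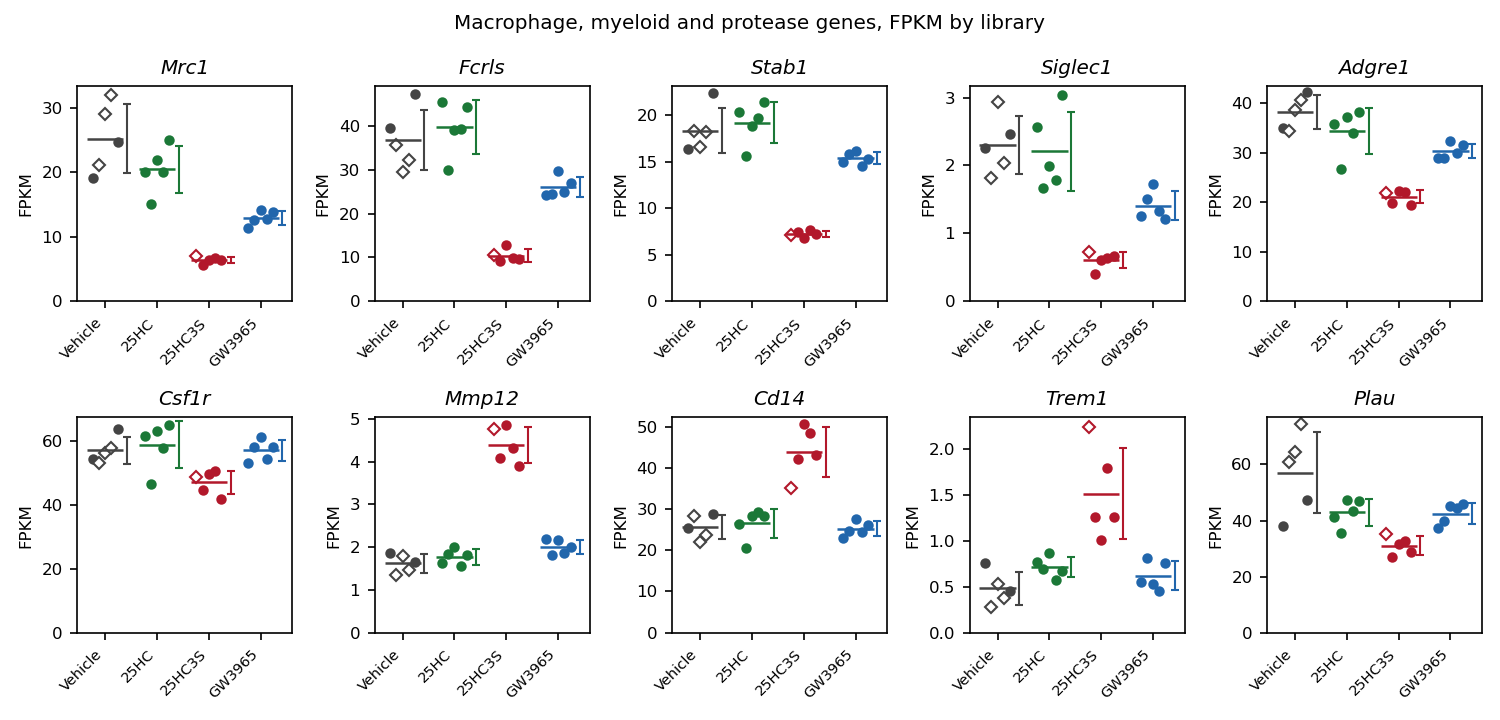
FPKM (y axis, linear) of macrophage, myeloid and protease genes in each library by group (x axis), with the mean (bar) and SD (error bar, n = 5); open diamonds are the low-complexity libraries. Mrc1 lies at 5.56 to 6.94 FPKM with 25HC3S and 19.2 to 32.1 FPKM in vehicle, and Mmp12 at 3.89 to 4.85 and 1.34 to 1.87 FPKM.

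Calls among interferon-stimulated genes depended on the libraries used. Of 21 tested, Ifit1 alone fell with 20 libraries and 10 were lower with 16, with medians of -0.27 and -0.51. Shares over all genes were 1.14% and 2.63%. Ifit1, an RNA-binding antiviral protein, stood at 11.1, 11.8, 13.3, 11.6 and 8.46 FPKM in vehicle and 10.3, 3.93, 4.87, 4.94 and 4.64 FPKM with 25HC3S. Library 1 of 25HC3S lay within the vehicle range, and the difference was -0.92 ± 0.21 (adjusted p = 0.031) with 20 libraries and -0.94 ± 0.23 (adjusted p = 0.029) with 16. Its call was lost with 20 libraries without vehicle 3 or 4 or 25HC3S 2, 3, 4 or 5 (adjusted p = 0.064 to 0.1) and with 16 without vehicle 1 or 5 or 25HC3S 2 or 5 (adjusted p = 0.054 to 0.25). Isg15, a ubiquitin-like modifier, stood at 22.1, 22.1, 3.19, 2.87 and 13.1 FPKM in vehicle and 5.26, 8.25, 6.94, 10.3 and 7.21 FPKM with 25HC3S. Vehicle 3 and 4 lay below every 25HC3S library and vehicle 1, 2 and 5 above, with -0.30 ± 0.41 (adjusted p = 0.69) with 20 libraries and -0.99 ± 0.25 (adjusted p = 0.039) with 16. The 16-library call of Isg15 was lost without vehicle 1 or 5 or 25HC3S 2, 3 or 5 (adjusted p = 0.056 to 0.4), and its difference was -0.63 without vehicle 1. Ifi27l2a stood at 29.9, 4.04, 9.69, 2.90 and 24.3 FPKM in vehicle and 4.44, 9.59, 10.4, 11.6 and 7.04 FPKM with 25HC3S, with -0.26 ± 0.43 (adjusted p = 0.75) with 20 libraries and -1.41 ± 0.21 (adjusted p = 0.0013) with 16.

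Of 26 tested genes of the cartilage matrix, Epyc (epiphycan) alone was called with 20 libraries, and fell. With 16 it was not called, Matn1 and Col11a2 were lower, and none was higher. Over all genes, 1.14% fell with 20 libraries and 2.63% were lower with 16. The list medians were -0.03 and -0.15, beside 0.02 and 0.01 over all genes, and 14 and 20 of the 26 lay below 0. Epyc lost its 20-library call without vehicle 3 or 4 or 25HC3S 2, 3, 4 or 5 (adjusted p = 0.051 to 0.13), and Adamts1, named next, without vehicle 4 or 25HC3S 2, 3 or 4 (adjusted p = 0.073 to 0.1). Col2a1 stood at 2085, 3501, 1059, 1090.0 and 2053 FPKM in vehicle and 1509, 2304, 1985, 2138 and 2069 FPKM with 25HC3S. Vehicle 2 was its highest library and vehicle 3 and 4 the lowest, and the difference was 0.16 ± 0.23 (adjusted p = 0.71) with 20 libraries and 0.04 ± 0.09 (adjusted p = 0.89) with 16. Its 95% interval was ± 0.49 with 20 libraries and ± 0.19 with 16. Acan averaged 72.7 ± 8.20 FPKM in vehicle and 65.7 ± 7.01 FPKM with 25HC3S, at -0.14 ± 0.09 (adjusted p = 0.38) with 20 libraries and -0.20 ± 0.09 (adjusted p = 0.24) with 16. Of 20 genes of matrix breakdown, 2 rose, among them Mmp12, and Plau, Adamts1 and Timp3 fell, in both fits. Plau, the urokinase-type plasminogen activator, stood at 38.0, 61.0, 64.5, 74.4 and 47.4 FPKM in vehicle and 35.4, 26.9, 31.6, 32.8 and 28.7 FPKM with 25HC3S. Only 25HC3S 1 came near the vehicle libraries, and the difference was -0.82 ± 0.14 (adjusted p = 0.0033) with 20 libraries and -0.49 ± 0.12 (adjusted p = 0.028) with 16. The 16-library call of Plau was lost without vehicle 5 or 25HC3S 2 or 5 (adjusted p = 0.062 to 0.36). Mmp13, the main collagenase of cartilage, averaged 315 ± 20.2 FPKM in vehicle and 389 ± 32.4 FPKM with 25HC3S, at 0.30 ± 0.08 (adjusted p = 0.055) with 20 libraries and 0.28 ± 0.10 (adjusted p = 0.14) with 16, and Adamts5, an aggrecanase, was at -0.11 and 0.12. No hypertrophy gene of 14 was called in either fit. Of 20 fibroblast genes Postn, periostin, alone fell, from 19.4 ± 0.548 to 13.9 ± 1.31 FPKM, at -0.46 and -0.52. With 16 libraries, 3 of the 20 were lower and 1 higher. No contractile gene of 12 was called with 20 libraries, and 4 were lower and none higher with 16. The contractile medians were -0.14 and -0.25.

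Other groups held single changes with 20 libraries. Car3, a carbonic anhydrase of fat and muscle, stood at 8.01, 9.18, 10.0, 19.0 and 9.04 FPKM in vehicle and 3.38, 2.27, 3.35, 2.95 and 3.00 FPKM with 25HC3S. Vehicle 4 was its highest library, and the difference was -1.54 ± 0.17 (adjusted p = 3.2e-05) with 20 libraries and -1.30 ± 0.15 (adjusted p = 0.00014) with 16. The other 4 tested adipocyte markers did not pass with 20 libraries, and Adipoq and Fabp4 were lower with 16, at -0.81 and -0.47; the adipocyte list summed to 27.3 to 65.1 FPKM in vehicle and 18.8 to 36.8 FPKM with 25HC3S, and its part in the fall of Car3 was not tested. Tnfrsf11a (RANK), the osteoclast receptor for RANKL, fell, at -0.46 and -0.47. No endothelial, muscle, osteoblast, mast cell or synovial marker was called with 20 libraries. With 16, 1 marker of the synovial and tendon list was lower, and none of the other 4 kinds was called. Ccnd1, cyclin D1, alone fell of 25 proliferation genes, from 87.6 ± 13.4 to 67.4 ± 7.41 FPKM, at -0.37 and -0.21, and lost its 20-library call without vehicle 2, 3 or 4 or 25HC3S 2, 3, 4 or 5 (adjusted p = 0.064 to 0.13). Igfbp5, an IGF-binding protein, fell from 44.1 ± 6.88 to 32.1 ± 3.06 FPKM, at -0.44 and -0.63. Sesn1, which p53 induces, fell, at -0.48 and -0.46, as did Gpnmb, a glycoprotein of lysosomes, at -0.26 and -0.27. Igfbp5 lost its 20-library call without vehicle 3 or 4 or 25HC3S 2, 3 or 4 (adjusted p = 0.054 to 0.096). With 20 libraries no gene was called in the lists of NRF2 targets, Hedgehog signalling, TGF-beta and BMP signalling, hypoxia with glycolysis, or either stress response (integrated and unfolded protein). These lists held 9 to 23 tested genes, and over all genes 0.463% rose and 1.14% fell. With 16 libraries, 1 NRF2 target and 1 gene of the integrated stress response were higher. Hedgehog signalling then held 1 lower gene and TGF-beta and BMP signalling 2. Hypoxia with glycolysis and the unfolded protein response held no call in either fit.

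**Figure D4:**
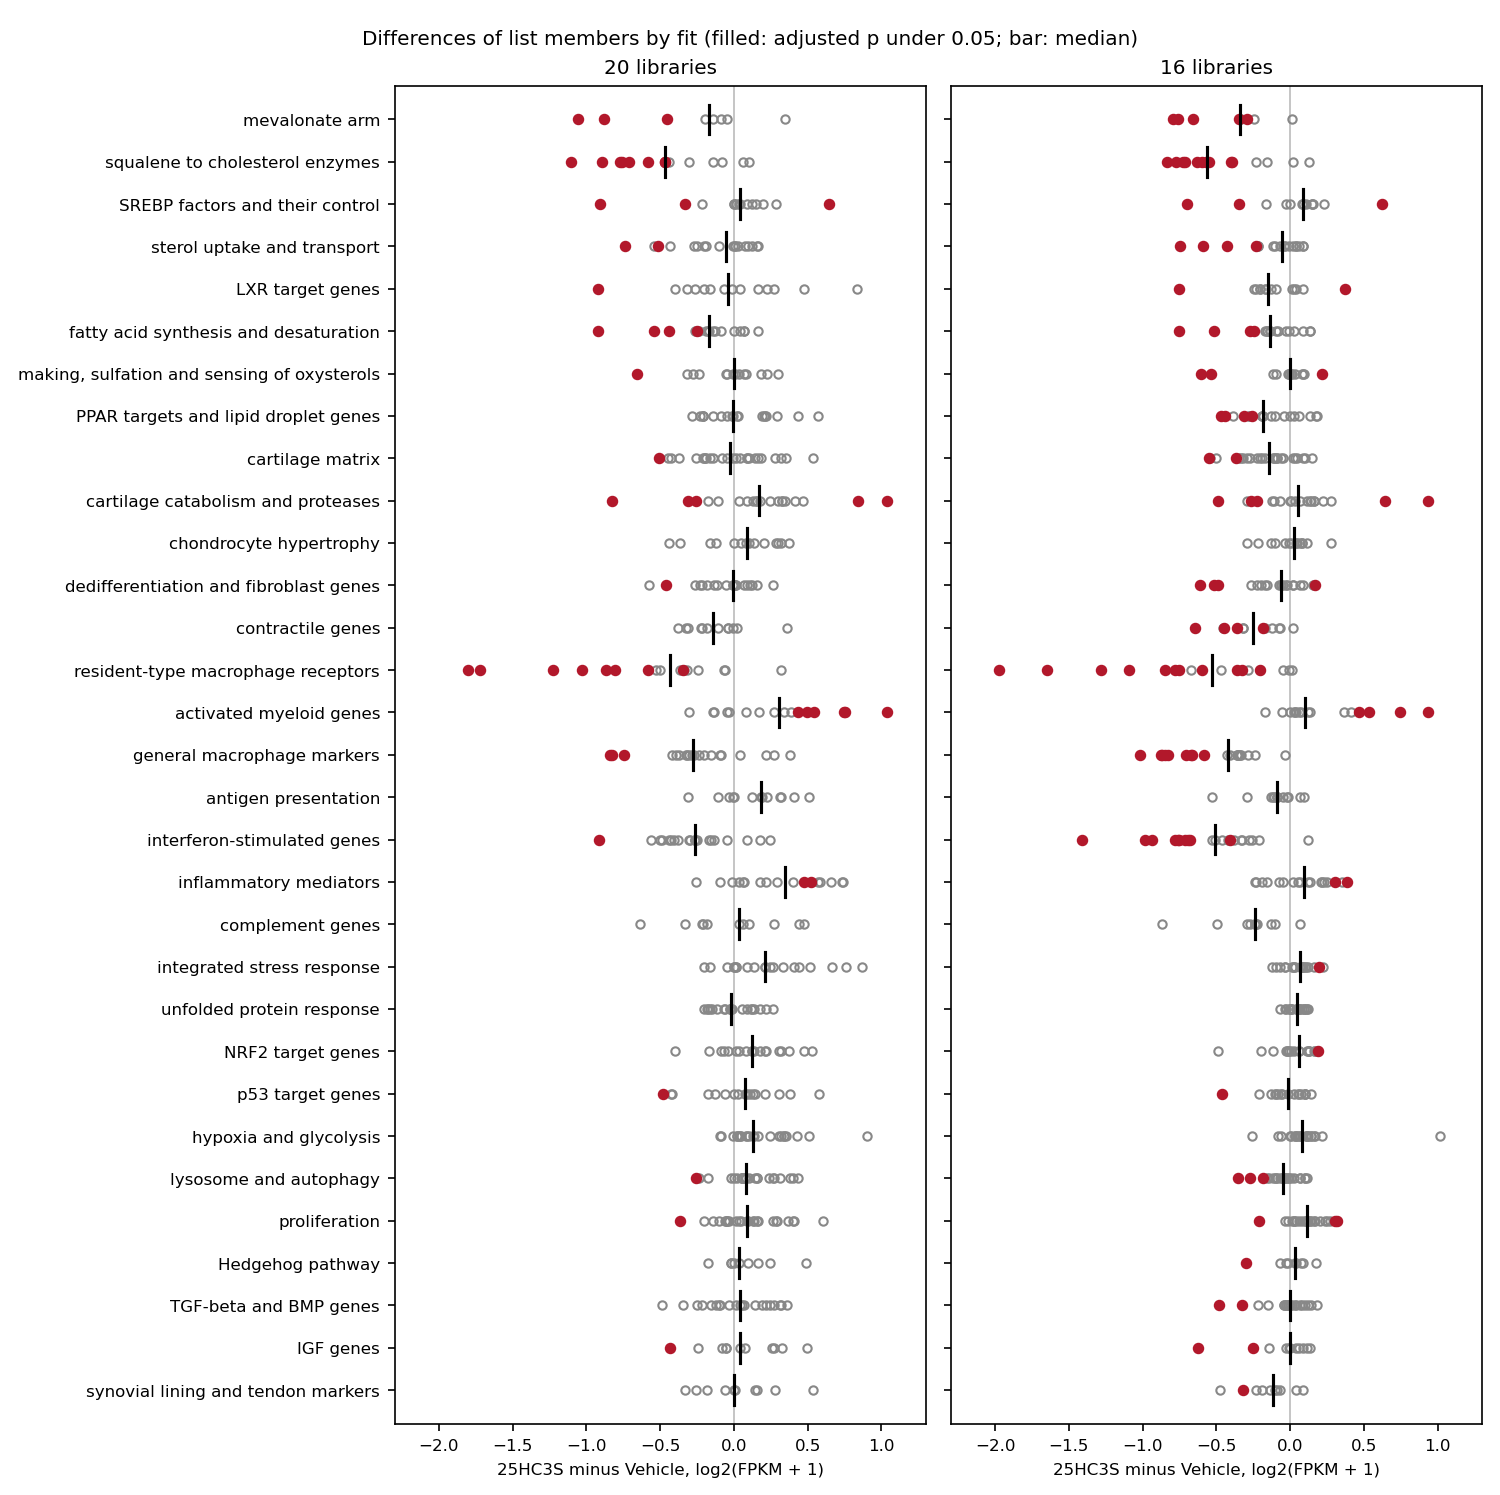
Difference of 25HC3S minus vehicle on the log2(FPKM + 1) scale for each tested member of the lists with at least 8 tested genes, with 20 and with 16 libraries; filled points had an adjusted p under 0.05 and bars are list medians. The interferon median moves from -0.27 to -0.51.

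Some genes outside the lists were singled out after their values were seen. Over all genes, 0.463% rose and 1.14% fell with 20 libraries. Of 9 tested Toll-like receptors, Tlr7, Tlr8 and Tlr13, which sense nucleic acids, were lower in both fits and the other 6 were called in neither; among those 6 is Tlr3, which also senses nucleic acid, at -0.27 and -0.17. Tlr13 stood at 8.60, 8.06, 15.9, 17.6 and 11.4 FPKM in vehicle and 7.49, 5.51, 6.26, 5.45 and 5.14 FPKM with 25HC3S. Vehicle 3 and 4, of low complexity, were its highest libraries. The groups did not overlap, and the difference was -0.88 ± 0.17 (adjusted p = 0.011) with 20 libraries and -0.73 ± 0.15 (adjusted p = 0.0098) with 16. Tlr7 and Tlr8 stood at -0.79 and -0.80 with 20 libraries and -0.67 and -0.72 with 16. With the 2 groups fitted alone, Tlr7, Tlr8 and Tlr13 were not called (limma adjusted p = 0.52, 0.26 and 0.26). Among 9 prostaglandin enzymes, where Ptgs2 rose, Hpgds, Ptgis and Hpgd fell. With the 2 groups fitted alone, Hpgd kept its call (limma adjusted p = 0.014). Ptgs2, Hpgds and Ptgis lost theirs (limma adjusted p = 0.26, 0.38 and 0.72). Hpgd, which inactivates prostaglandins, stood at 6.52, 5.98, 6.76, 6.22 and 6.30 FPKM in vehicle and 4.04, 3.23, 4.13, 3.35 and 3.38 FPKM with 25HC3S, a difference of -0.67 ± 0.07 (adjusted p = 2.3e-05) with 20 libraries and -0.72 ± 0.09 (adjusted p = 0.00025) with 16. Clec3a, a cartilage lectin, fell from 23.0 ± 5.03 to 12.4 ± 2.65 FPKM, at -0.84 and -0.89, and Aspn, asporin, from 34.0 ± 13.6 to 16.9 ± 4.26 FPKM, at -0.91 and -0.82. Aspn lost its 20-library call without vehicle 3 or 4 or 25HC3S 2, 3, 4 or 5 (adjusted p = 0.051 to 0.075). Clec3a was not called with the 2 groups fitted alone (limma adjusted p = 0.11). Of 6 genes picked among lipid and glycan enzymes and membrane transport, 3 rose and 3 fell, in both fits. B4galt5, Ugcg and Lpcat1, enzymes of glycosphingolipid and phospholipid synthesis, rose, at 0.36, 0.35 and 0.36 with 20 libraries and 0.34, 0.31 and 0.36 with 16. Enpp2 (autotaxin), Osbpl8, an oxysterol-binding protein relative, and Slc40a1, the iron exporter ferroportin, fell, at -0.50, -0.55 and -0.40 with 20 and -0.41, -0.29 and -0.35 with 16. None of these 6 genes was called with the 2 groups fitted alone (limma adjusted p = 0.071 to 0.65).

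Of the 78 genes taken by the naming rule, 50 were called in both fits. In every alternative that tested them, in both fits, 13 stayed past the threshold: Mmp12, Cd14, Rnf145, Mrc1, Fcrls, Car3, Stab1, Siglec1, Insig1, Cyp51, Hmgcs1, Adgre1 and Sqle. The minimum of 5 FPKM left Mmp12 and Siglec1 untested, so that alternative was not run for them. Others among the largest differences were less stable. Snora34, a small nucleolar RNA, stood at 1.91, 0, 0, 0 and 1.19 FPKM in vehicle and 2.33, 3.62, 2.00, 1.49 and 3.44 FPKM with 25HC3S. It was listed at 0 in the vehicle libraries of low complexity, and its difference was 1.26 ± 0.31 (adjusted p = 0.044) with 20 libraries and 0.48 ± 0.33 (adjusted p = 0.51) with 16. Gpr84, a receptor for medium-chain fatty acids, was at 0.71 ± 0.17 (adjusted p = 0.037) with 20 libraries and 0.32 ± 0.18 (adjusted p = 0.4) with 16, and with 20 was not called without vehicle 2, 3 or 4 or 25HC3S 1, 2, 3 or 4 (adjusted p = 0.053 to 0.1). Porcn, which acylates Wnt proteins, rose by 0.73 ± 0.17 (adjusted p = 0.04) with 20 libraries and 0.47 ± 0.08 (adjusted p = 0.0045) with 16, and lost its 20-library call without vehicle 3 or 4 or 25HC3S 2, 3, 4 or 5 (adjusted p = 0.079 to 0.13).

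The sulfated and the free oxysterol, which differ by the sulfate at carbon 3, were compared as 1 pair at the same 20 µM and 48 hours. With 20 libraries, 20 genes were higher with 25HC3S than with 25HC (0.157%) and 84 lower (0.659%); with 16, 317 were higher (2.49%) and 599 lower (4.7%). Leaving out each of the 10 oxysterol libraries in turn from the 20 gave 5 to 11 higher and 54 to 84 lower calls. Differences here are 25HC3S minus 25HC. Of the 22 cholesterol synthesis enzymes, 14 were lower with 25HC3S than with 25HC with 20 libraries and 19 with 16, and none was higher in either fit. In 18 of the 22, the mean FPKM with 25HC lay above that of vehicle, so these differences are not those from vehicle. Insig1 averaged 8.12 ± 1.48 FPKM with 25HC3S, 23.0 ± 2.35 FPKM with 25HC and 16.1 ± 2.49 FPKM in vehicle (SD, n = 5), and the oxysterols differed by -1.41 ± 0.11 (adjusted p = 2.5e-07) with 20 libraries and -1.32 ± 0.08 (adjusted p = 7e-08) with 16. Ggps1 and Ebp did not pass in this comparison with 20 libraries, at 0.04 (95% interval ± 0.33) and -0.16 (95% interval ± 0.24).

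**Figure D5:**
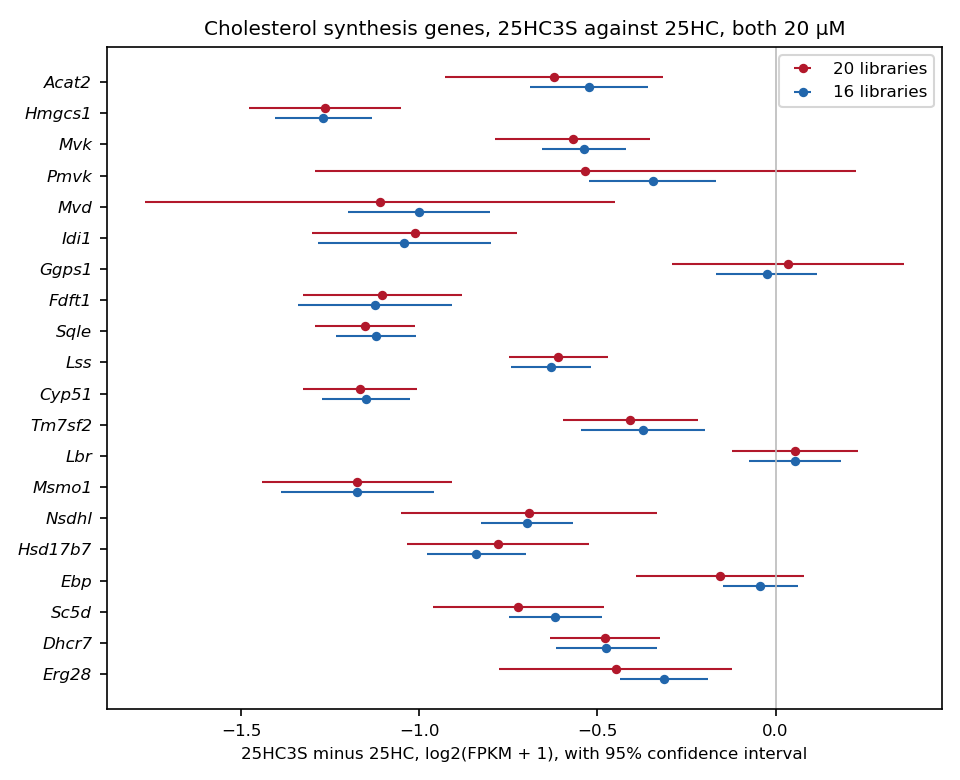
Difference of 25HC3S minus 25HC on the log2(FPKM + 1) scale, with its 95% confidence interval, for 20 of the 22 tested cholesterol synthesis genes (rows), from 20 and from 16 libraries. Hmgcs1 lies at -1.26 and -1.27, and Ggps1 at 0.04 and -0.03.

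Of the 18 resident-type receptors, 5 were lower with 25HC3S than with 25HC with 20 libraries and 12 with 16, of the 20 general macrophage markers 3 and 11, and none of either list was higher. Of the 16 activated myeloid genes, 5 were higher in each fit and none lower, and none of the 13 antigen presentation genes was called. Over all genes these shares were 0.659% lower and 0.157% higher with 20 libraries, and 4.7% and 2.49% with 16. Mrc1 averaged 20.5 ± 3.61 FPKM with 25HC, and the difference of 25HC3S from it was -1.52 ± 0.13 (adjusted p = 5.5e-07) with 20 libraries and -1.55 ± 0.11 (adjusted p = 4.6e-07) with 16. With 20 libraries, Fcrls differed by -1.83 ± 0.13 (adjusted p = 3.4e-08), Mmp12 by 0.96 ± 0.08 (adjusted p = 2.5e-07), Cd14 by 0.70 ± 0.11 (adjusted p = 0.0014) and Rnf145 by 0.59 ± 0.05 (adjusted p = 1.5e-06). With 16 these were -1.84 ± 0.11 (adjusted p = 1.5e-07) for Fcrls, 0.93 ± 0.07 (adjusted p = 3.2e-07) for Mmp12, 0.78 ± 0.09 (adjusted p = 6e-05) for Cd14 and 0.61 ± 0.04 (adjusted p = 2.9e-07) for Rnf145. Of the 14 tested LXR targets, 2 were higher and 1 lower with 25HC3S than with 25HC with 20 libraries. With 16, 2 were higher and 4 lower, and the list medians were -0.08 and -0.12. Abca1 averaged 5.96 ± 0.482 FPKM with 25HC and differed by 0.58 ± 0.13 (adjusted p = 0.037) with 20 libraries and 0.47 ± 0.05 (adjusted p = 1.9e-05) with 16, and Abcg1 by 0.70 ± 0.12 (adjusted p = 0.0054) and 0.56 ± 0.06 (adjusted p = 4.6e-05). Col2a1 did not pass with 20 libraries, at -0.21 (95% interval ± 0.49), and neither did Csf1r, at -0.31 (95% interval ± 0.18), which was lower with 16, at -0.32 ± 0.09 (adjusted p = 0.034).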

How the data were processed

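The deposited table gives FPKM per gene for the 20 libraries, computed by the authors; the submitters' processing notes name CASAVA 1.8 and HISAT2 2.0.5. For the counting tool, strand setting, annotation and build, the sources used here give nothing. Its gene IDs were 99.93% those of GENCODE M21 (GRCm38), and 98.33% of these had the same coordinates. FPKM times gene length came in whole steps within 0.02 of a fragment, which gave the fragments per library. The 12752 genes reaching FPKM 1 in 5 or more libraries were tested with limma 3.58.1 (R 4.3.3) on log2(FPKM + 1), with 1 mean per group over all 4 groups, a variance trend, two-sided tests and Benjamini-Hochberg adjustment over all of them; scripts were tested on simulated data. Alternatives changed the pseudocount, filter, scaling, weights, samples fitted, test (voom on fragments) and replicate block, and left out single libraries.

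Named genes were the 12 largest called differences each way with 20 libraries, 8 more each way with 16, up to 4 called members per list, and a set fixed by name, leaving out predicted-gene names. Members, lists, motifs and the low-complexity libraries were chosen with earlier results of these data known. Promoters came from RefSeq (GRCm38.p6), which matched 9140 of the tested symbols. Lists carry counts and medians only. Some genes are not reported here by name; group counts hold all members.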

Additional observations from a re-analysis of the deposited data

Results flagged for a closer look

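In groups of 5 libraries, chance sets 1 library apart by this rule in about 1 in 20 groups; 78 named genes in 2 groups gave 13 such values. Of these, 7 were in 25HC3S replicate 1: it was the highest 25HC3S library for Scd1 (55.19 FPKM), Ifit1 (10.34 FPKM), Acly (31.27 FPKM), Adamts5 (19.83 FPKM) and Mki67 (36.28 FPKM) and the lowest for Fos (3.52 FPKM) and Srebf1 (18.42 FPKM). The same library stood apart in its group in genes with exactly 1 fragment (1171) and in the mitochondrial share of fragments (3.139%). In vehicle, replicate 4 was highest for Car3 (18.98 FPKM), replicate 3 was highest for Insig1 (20.47 FPKM) and lowest for Postn (18.5 FPKM), and replicate 2 was lowest for Cd68 (16.17 FPKM). In 25HC3S, replicate 2 was lowest for Fdft1 (2.893 FPKM), and replicate 3 was the only one of its 5 libraries with a value above 0 for Mir301 (0.6423 FPKM).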

How the results depend on the processing

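With 20 libraries, the 59 higher and 146 lower genes against vehicle became 6 and 17 with the 2 groups fitted alone, 283 and 486 with library weights, and 134 and 357 with both. Without vehicle 3 and 4 and 25HC3S 1, which stood apart on the first component, there were 237 higher and 343 lower, and without vehicle 2 to 4 there were 37 higher; these 2 settings and that of 2 groups with weights were chosen after seeing the data. An FPKM minimum of 5 left 95 lower. Leaving out 1 library at a time gave 23 to 339 higher and 74 to 283 lower. With 16 libraries, the 169 higher and 335 lower genes became 33 and 142 with 2 groups alone; 103 were higher with no filter and 256 with weights, 513 were lower with voom on fragments, and leaving out 1 library gave 23 to 141 higher and 85 to 326 lower. Against 25HC with 20 libraries, the 20 higher became 13 with no filter, 12 with the minimum of 5, 32 with 2 groups alone and 362 with weights, the 84 lower became 173 with 2 groups and 691 with weights, and leaving out 1 library gave 5 to 11 higher and 54 to 84 lower. With 16 libraries that comparison, itself chosen after seeing the data, gave 194 higher with 2 groups and 853 with voom; leaving out single libraries was not run for it. The cause of these changes was not tested.

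Whether the replicate numbers of the labels pair the samples could not be decided. Same-numbered vehicle and 25HC3S libraries had correlations of -0.702, 0.27, -0.304, -0.396 and 0.254. In order, the 25HC3S libraries correlated best with numbers 3, 1, 1, 1 and 1, not with their own. Some low-complexity libraries of both groups stood apart on the first component, which held 49.17% of the variance. The correlations can reflect this, so they cannot show whether same-numbered samples were paired. With the replicate block, higher calls were 36 with 20 libraries, 100 with 16 and 11 against 25HC with 20.

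Among the 78 named genes, values that changed sign were those of genes not called in that comparison. With 20 libraries they were Abca1 (0.122 without vehicle 2 to 4), Adamts5 (0.099 weights, 0.246 without vehicle 2 to 4, 0.0842 without the 3 first-component libraries, 0.0962 2 groups with weights, -0.239 to 0.0252 without 1 library), Cd68 (0.0438 without the 3 first-component libraries), Ch25h (-0.238 to 0.158 without 1 library), Col2a1 (-0.0625 without vehicle 2 to 4, -0.217 without the 3 first-component libraries, -0.0211 to 0.41 without 1 library), Cyp7b1 (0.0587 without vehicle 2 to 4), Ifi27l2a (-0.636 to 0.11 without 1 library), Mki67 (0.0444 weights, 0.272 without vehicle 2 to 4, 0.15 without the 3 first-component libraries, 0.048 2 groups with weights, -0.395 to 0.00443 without 1 library) and Srebf1 (-0.151 weights, -0.216 without vehicle 2 to 4, -0.157 without the 3 first-component libraries, -0.149 2 groups with weights, -0.0656 to 0.112 without 1 library). With 16 libraries they were Abca1 (-0.0346 block, -0.0228 to 0.0523 without 1 library), Col2a1 (-0.0301 quantiles, -0.00427 to 0.0674 without 1 library), Cyp7b1 (9.77e-05 quantiles, 0.00166 block, -0.0651 to 0.04 without 1 library), Mki67 (-0.034 to 0.189 without 1 library) and Mmp3 (-0.844 to 0.253 without 1 library). Of the named genes called, 40 of 55 lost the call with 20 libraries and 29 of 63 with 16 when the 2 groups were fitted alone. Vehicle keeps 2 libraries in the 16-library fit, which limits its precision.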
